A study of Mus musculus with 12 samples.

Results

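The MYC, MAX and MLX network is a group of basic helix-loop-helix leucine zipper transcription factors that act as pairs. MYC proteins bind DNA together with MAX and raise transcription of growth genes, and the MXD proteins and MNT take the same partner and repress. MLX is a second partner, used by MondoA (Mlxip) and ChREBP (Mlxipl), which respond to sugar phosphates and raise Txnip, whose product restrains glucose uptake and binds thioredoxin. In mouse pluripotent cells MYC and N-MYC are known for sustaining biosynthesis and growth. The 10 genes described here were chosen by symbol: Myc, Mycn, Mycl, Max, Mxd3, Mxd4, Mnt, Mlx, Mlxip and Txnip, out of 57180 genes in the quantification. All 10 passed the filter of at least 10 counts in total, so all were among the 25446 genes tested.

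The study repressed Pcx, Me1 and Me2, which encode pyruvate carboxylase and the cytosolic and mitochondrial malic enzymes, to ask how pyruvate cycling affects exit from naive pluripotency. All 12 libraries came from E14-dox-CRISPRi mouse embryonic stem cells, a line in which doxycycline switches on a repressor built on dead Cas9, and which descends from 1 chosen clone. Cells labelled Neg carried scrambled guides and cells labelled 3xKD carried guides to all 3 enzyme genes. The paper lists Neg and 3xKD as separate lines, made by transfecting guides into the parent line and selecting. Effects of the guides and of the line therefore cannot be told apart. Both were sampled as ESCs, kept in naive conditions with inhibitors and LIF, and as EpiLCs after 2 days of induction with activin A, Fgf2 and a WNT pathway inhibitor. That gave 4 groups of 3 libraries: Neg ESCs, 3xKD ESCs, Neg EpiLCs and 3xKD EpiLCs. The study's methods describe treatment with doxycycline or its solvent, and a figure legend gives doxycycline for both Neg and 3xKD cells. The labels do not name it. All lines were kept in low oxygen, per the methods. The cell type field of the labels goes with the guide and not with the state, so groups were taken from the titles. Library totals lay between 11221023 and 19652197 estimated counts.

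The markers followed the titles. The summed level of 10 naive pluripotency markers, in CPM (read counts scaled to library size), lay at 5181 to 5344 in Neg ESCs, 4029 to 4105 in 3xKD ESCs, 343 to 358 in Neg EpiLCs and 476 to 490 in 3xKD EpiLCs. The summed level of 7 formative and primed markers lay at 136 to 137, 119 to 130, 2010 to 2311 and 965 to 989 CPM in the same order. The 3xKD EpiLCs thus held higher naive and lower formative marker sums than the Neg EpiLCs, and the part of that shift in the results below was not tested. By the limits given below, 5 of the 10 naive markers were called higher and 1 lower in 3xKD EpiLCs. In 3xKD ESCs 0 were called higher and 5 lower. Of the 7 formative and primed markers, 0 were called higher and 6 lower in EpiLCs, and 2 higher and 2 lower in ESCs. The fibroblast markers summed to 8.62 CPM at most. In every group 4 or 5 of the 6 were under 1 CPM on average or not fitted. Markers of mesoderm and neural fate summed to 32.6 to 34.3 CPM in Neg ESCs, 32.6 to 35.9 in 3xKD ESCs, 88.3 to 91.6 in Neg EpiLCs and 44.2 to 47.3 in 3xKD EpiLCs, and 3 of the 6 were under 1 CPM on average in every group. Primitive endoderm markers summed to 22.2 to 25.0, 30.5 to 32.9, 27.1 to 32.0 and 24.0 to 25.4 CPM in the same order. Trophoblast markers summed to 53.5 to 57.0, 69.8 to 81.8, 19.5 to 22.7 and 48.8 to 49.95 CPM. Of these 6 markers, 2 or 3 averaged under 1 CPM in each group. The larger sum of 3xKD ESCs was not shared by Cdx2, whose mean was 2.86 CPM in Neg ESCs and 0.50 CPM in 3xKD ESCs. With 3xKD, the limits called 2 trophoblast markers up and 1 down among ESCs. For EpiLCs the calls were 3 up and 0 down. The part of these lists in the results was not tested. Pcx, Me1 and Me2 were lower in 3xKD cells in both states, with log2 fold changes between -0.89 and -1.14 and no overlap between libraries. The study's methods state in general that experiments used biological triplicates, and the labels do not say how the 3 libraries of a group were cultured, so p-values measure the spread between these libraries.

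Of the 10 network genes, 7 were called in the comparison of 3xKD with Neg ESCs, where a call means an adjusted p under 0.01 by edgeR's quasi-likelihood test over all genes and an absolute log2 fold change above 0.58. Txnip, Mxd3 and Mlxip rose and Myc, Mycn, Max and Mxd4 fell. The same limits called 15.3% of all genes tested, 8.5% higher and 6.76% lower. In EpiLCs 4 of the 10 were called, with Txnip and Mxd3 higher and Mycn and Mxd4 lower, against 13.2% of all genes, 7.88% higher and 5.35% lower. The median log2 fold change of the 10 was -0.19 in ESCs and 0.14 in EpiLCs, beside 0.026 and 0.032 over all genes tested. The 3xKD and Neg libraries did not overlap for 9 of the 10 genes in ESCs and for 8 in EpiLCs, beside 49% and 47.2% of all genes. The 10 genes and the lists around them were chosen with earlier results of these data known. Their counts beside all genes, here and below, are therefore descriptions and no independent evidence about the network. In these bulk libraries fewer cells of a type and less RNA per cell cannot be told apart.

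**Figure D1:**
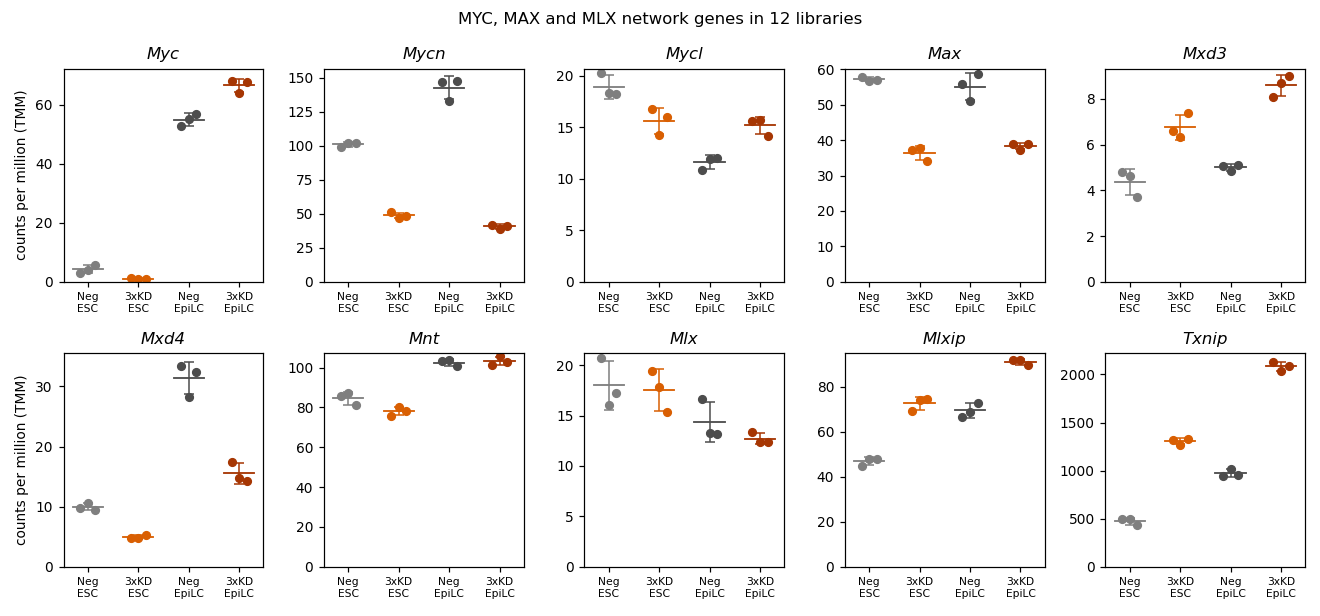
CPM (linear axis from 0, scale set for each gene) of the 10 network genes; points are the 3 libraries of each group in replicate order, horizontal lines the group mean and error bars the SD. Mycn and Mxd4 lie lower in 3xKD than in Neg cells of both states, Txnip lies higher in both, and Myc is lower in 3xKD ESCs (0.849 to 1.29) than in Neg ESCs (3.10 to 5.71).

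The MYC family genes come first. Myc, which encodes c-MYC, lies on chromosome 15 at 61857227 to 61862223 on the plus strand of GRCm39. It measured 3.10, 4.13 and 5.71 CPM in the Neg ESC libraries and 1.29, 0.976 and 0.849 CPM in the 3xKD ESC libraries. In Neg EpiLCs it measured 52.7, 55.1 and 57.0 CPM and in 3xKD EpiLCs 67.9, 64.0 and 67.9 CPM. Every ESC library was far below every EpiLC library, and within each state the Neg and 3xKD libraries did not overlap. In ESCs Myc fell by 2.10 on the log2 scale with 3xKD (SE 0.21, adjusted p = 4.39e-07, edgeR), but the 3xKD ESC level rests on 13 to 21 counts per library. In EpiLCs the log2 fold change was 0.28 (SE 0.09, adjusted p = 0.0199, edgeR) and did not pass. The difference between the effects in the 2 states was itself called, at 2.38 on the log2 scale (SE 0.23, adjusted p = 1.94e-06, edgeR).

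Between states, Myc rose by 3.61 in Neg cells (SE 0.12, adjusted p = 1.75e-13, edgeR) and by 5.99 in 3xKD cells (SE 0.15, adjusted p = 6.79e-15, edgeR), both as log2 fold changes of EpiLCs over ESCs. Of the 25446 genes tested, 511 had a larger log2 fold change than Myc in Neg cells and 53 in 3xKD cells. These state comparisons share their libraries with the 3xKD comparisons. Of the 10 genes, Myc, Mxd4 and Txnip rose and Mycl fell from Neg ESCs to Neg EpiLCs, beside 20.8% of all genes called, 9.78% higher and 11% lower. From 3xKD ESCs to 3xKD EpiLCs Myc, Mxd4 and Txnip rose, beside 18.7% of all genes called, 9.42% higher and 9.32% lower. In each state comparison 7 of the 10 had an adjusted p under 0.01, beside 35.7% of all genes in Neg and 33.8% in 3xKD cells, and 8 had no overlap between ESC and EpiLC libraries, beside 51.7% and 51.7%. The effect of 3xKD differed between states, at an adjusted p under 0.01 by edgeR with no fold limit, for Myc, Mycn, Mycl and Txnip, with 2 effects more positive and 2 more negative in EpiLCs, beside 10% of all genes, 4.76% higher and 5.27% lower.

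Mycn encodes N-MYC, the family member best known from embryonic progenitors, and lies on chromosome 12 at 12986076 to 12992915 on the minus strand. It measured 98.9, 102.1 and 102.2 CPM in Neg ESCs and 51.1, 47.2 and 48.1 CPM in 3xKD ESCs. In Neg EpiLCs it measured 147.1, 133.0 and 147.9 CPM, and in 3xKD EpiLCs 41.9, 38.9 and 41.3 CPM. The 3xKD libraries lay below the Neg libraries in both states. Mycn fell by 1.05 (SE 0.05, adjusted p = 7.03e-11, edgeR) in ESCs and by 1.81 (SE 0.05, adjusted p = 6.35e-13, edgeR) in EpiLCs on the log2 scale. The fall was larger in EpiLCs, with a difference of -0.76 (SE 0.07, adjusted p = 1.12e-06, edgeR). From ESCs to EpiLCs its log2 fold change was 0.50 (SE 0.05) in Neg cells and -0.26 (SE 0.05) in 3xKD cells. Both had adjusted p values under 0.01 but were inside the fold limit.

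Mycl encodes L-MYC, and was the least abundant of the family per length in both EpiLC groups. It measured 20.2, 18.3 and 18.2 CPM in Neg ESCs, 16.7, 14.2 and 15.9 in 3xKD ESCs, 10.8, 11.9 and 12.01 in Neg EpiLCs, and 15.6, 15.7 and 14.2 in 3xKD EpiLCs. Its 3xKD log2 fold change was -0.27 (SE 0.08) in ESCs and 0.39 (SE 0.09) in EpiLCs, neither called. The difference between these effects was called at 0.66 (SE 0.12, adjusted p = 0.000898, edgeR), and lost the call with transcript length offsets (1.08, adjusted p = 0.0146, edgeR). In Neg cells Mycl fell by 0.70 on the log2 scale from ESCs to EpiLCs (SE 0.08, adjusted p = 2.74e-06, edgeR), and in 3xKD cells the ESC and EpiLC libraries overlapped, at -0.04 (SE 0.08).

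The 3 MYC genes can be compared with one another per length, on the TPM scale, which corrects counts for transcript length and library size. Their summed TPM was 33.6 ± 5.87 (SD, n = 3) in Neg ESCs, 15.7 ± 1.5 in 3xKD ESCs, 71.9 ± 5.33 in Neg EpiLCs and 41.0 ± 5.11 in 3xKD EpiLCs, with no overlap between Neg and 3xKD libraries of a state. Mycn made up 80.8% ± 2.38 (SD, n = 3) of this sum in Neg ESCs and 76.2% ± 1.6 in 3xKD ESCs. In Neg EpiLCs its share was 63.9% ± 1.5 and in 3xKD EpiLCs 28.7% ± 0.464. The Myc share was 4.74% ± 1.16, 2.32% ± 0.434, 32.0% ± 1.61 and 60.9% ± 0.924 in the same order. So Mycn was the largest of the 3 in every library of both ESC groups and of Neg EpiLCs, and Myc was the largest in all 3 libraries of 3xKD EpiLCs. These sums and shares are descriptions of chosen genes and have no test.

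**Figure D2:**
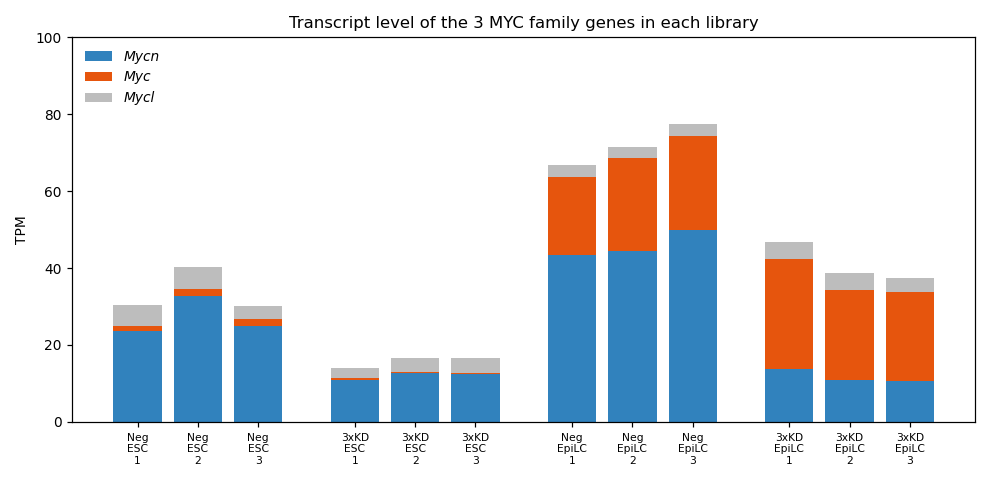
TPM of Mycn, Myc and Mycl stacked for each of the 12 libraries, labelled by group and replicate number, on a linear axis from 0. Mycn forms most of the bar in ESCs and in Neg EpiLCs, while Myc forms about 60.9% of it in 3xKD EpiLCs.

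Max, the shared partner of the MYC, MXD and MNT proteins, lies on chromosome 12 at 76984043 to 77009009 on the minus strand. It measured 57.8, 56.6 and 57.1 CPM in Neg ESCs and 37.2, 37.7 and 34.2 CPM in 3xKD ESCs. In Neg EpiLCs it measured 55.7, 51.0 and 58.7 CPM and in 3xKD EpiLCs 38.8, 37.3 and 39.0 CPM. The 3xKD libraries were lower in both states without overlap. Max fell by 0.65 on the log2 scale in ESCs (SE 0.05, adjusted p = 6.01e-08, edgeR), a call that was lost with transcript length offsets (-0.67, adjusted p = 0.0157, edgeR). In EpiLCs its log2 fold change was -0.52 (SE 0.05, adjusted p = 7.82e-07, edgeR), inside the fold limit, and the difference between the states was 0.13 (SE 0.08, adjusted p = 0.318, edgeR), not called. The TPM of Max depends on 1 transcript model of 203 bases, Max-206, whose effective length of 9.25 bases gave it 85.0% of the gene's TPM in Neg ESCs from 35.9 counts on average. Leaving out models with an effective length under 100 bases, Max stood at 27.6 ± 7.08 TPM in Neg ESCs, 15.1 ± 1.2 in 3xKD ESCs, 30.2 ± 4.38 in Neg EpiLCs and 18.8 ± 3.40 in 3xKD EpiLCs (SD, n = 3).

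The repressive partners of MAX moved in different directions. Mxd4, a MAD family repressor, fell with 3xKD in both states, by 0.99 (SE 0.11, adjusted p = 1.33e-06, edgeR) in ESCs and by 1.01 (SE 0.09, adjusted p = 9.49e-08, edgeR) in EpiLCs on the log2 scale. It measured 9.75, 10.6 and 9.48 CPM in Neg ESCs and 4.79, 4.82 and 5.36 in 3xKD ESCs, then 33.3, 28.3 and 32.4 in Neg EpiLCs and 17.4, 14.8 and 14.3 in 3xKD EpiLCs. No library of one group reached into the next. With transcript length offsets the ESC value was -0.52 (adjusted p = 0.0122, edgeR), which is no longer called, and the EpiLC value -0.72 stayed called. Mxd4 also rose from ESCs to EpiLCs, by 1.66 (SE 0.09, adjusted p = 1.89e-10, edgeR) in Neg cells and 1.64 (SE 0.10, adjusted p = 1.24e-09, edgeR) in 3xKD cells. The difference of the 3xKD effect between states was -0.02 (SE 0.15).

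Mxd3, the MAD family member linked to S phase, rose with 3xKD. It measured 4.79, 4.61 and 3.72 CPM in Neg ESCs, 6.57, 6.34 and 7.38 in 3xKD ESCs, 5.05, 4.83 and 5.12 in Neg EpiLCs, and 8.07, 8.70 and 8.99 in 3xKD EpiLCs. Its log2 fold change was 0.64 (SE 0.13, adjusted p = 0.000537, edgeR) in ESCs and 0.78 (SE 0.12, adjusted p = 6.26e-05, edgeR) in EpiLCs. The ESC call was lost when replicate 3 of either ESC group was left out, at 0.53 without the Neg library and 0.576 without the 3xKD library, and both calls were lost with transcript length offsets (0.59 and 0.67). Mnt, the broadly expressed MAX-binding repressor, lay at 81.1 to 87.4 CPM in Neg ESCs and 75.8 to 79.9 in 3xKD ESCs, and at 101 to 104 and 101 to 106 CPM in the 2 EpiLC groups. Its 3xKD log2 fold changes of -0.12 (SE 0.04) and 0.01 (SE 0.04) were not called.

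Per length, Mnt was the largest of these 3 repressor genes, at 14.8 ± 2.48 TPM in Neg ESCs against 3.36 ± 1.08 for Mxd3 and 2.34 ± 0.555 for Mxd4 (SD, n = 3). The summed TPM of Mxd3, Mxd4 and Mnt over the summed TPM of Myc, Mycn and Mycl was 0.609 ± 0.0255 in Neg ESCs and 1.11 ± 0.108 in 3xKD ESCs. It was 0.438 ± 0.0354 in Neg EpiLCs and 0.661 ± 0.0138 in 3xKD EpiLCs. The ratio was higher in every 3xKD library than in the Neg libraries of its state, and has no test. The MYC sum that it divides by was lower in 3xKD libraries of both states. The further network genes Mga and Mxi1 are not in the ratio, at 78.4 ± 18.5 and 11.5 ± 2.21 TPM in Neg ESCs (SD, n = 3). It is therefore no balance of the whole network.

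**Figure D3:**
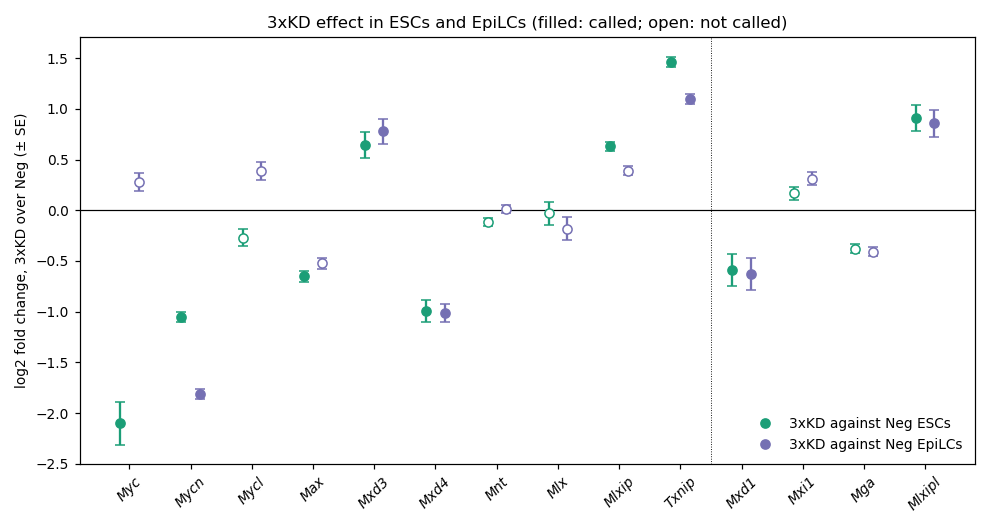
Log2 fold change of 3xKD over Neg, with its SE from edgeR, in ESCs (green) and EpiLCs (purple) for the 10 network genes and, right of the dotted line, 4 further genes of the network. Filled points are called and open points are not; Mxd4 lies at -0.99 and -1.01 in the 2 states, while Myc lies at -2.10 in ESCs and 0.28 in EpiLCs.

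The fall of Mxd4 was called for Mxd4-201 and not for Mxd4-202, and the difference between these transcripts was not tested. Mxd4-201, of 3872 bases in the quantification, measured 8.24, 8.31 and 7.53 CPM over transcripts in Neg ESCs and 2.75, 2.81 and 2.89 in 3xKD ESCs. Mxd4-202, of 1160 bases, measured 0.985, 1.30 and 1.39 and then 1.14, 1.26 and 1.48. Mxd4-201 fell by 1.51 (SE 0.13, adjusted p = 6.16e-05, edgeR over 77700 transcripts) in ESCs and by 1.29 (SE 0.13, adjusted p = 0.000158, edgeR) in EpiLCs on the log2 scale. Mxd4-202 had log2 fold changes of 0.068 (SE 0.32) and 0.017 (SE 0.32), not called. The limits called 3.21% of transcripts in ESCs and 2.8% in EpiLCs. The share of Mxd4-201 in the gene's TPM went from 54.8 to 65.8% in Neg ESCs to 27.8 to 35.4% in 3xKD ESCs, and from 58.8 to 72.9% in Neg EpiLCs to 41.3 to 46.9% in 3xKD EpiLCs. Mxd4-202 rests on 10.6 to 27.4 estimated counts in Neg ESC libraries, and the split is an estimate from single-end reads. This transcript fit was chosen after the gene values were seen.

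**Figure D4:**
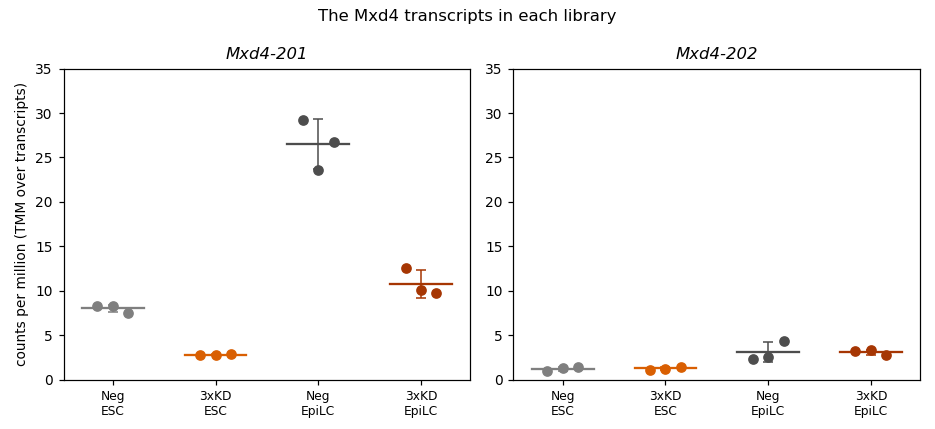
CPM over all transcripts (same linear axis from 0) for the Mxd4 transcripts Mxd4-201 and Mxd4-202; points are the 3 libraries of each group, lines the mean and error bars the SD. Mxd4-201 is lower in 3xKD cells of both states, and Mxd4-202 overlaps between Neg and 3xKD libraries.

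In the MLX branch Mlxip and Txnip rose in 3xKD ESCs, Txnip rose in 3xKD EpiLCs, and Mlx was called in neither state. Mlx, the partner of MondoA and ChREBP, measured 16.0 to 20.7 CPM in Neg ESCs, 15.4 to 19.4 in 3xKD ESCs, 13.2 to 16.6 in Neg EpiLCs and 12.3 to 13.3 in 3xKD EpiLCs. The Neg and 3xKD libraries overlapped in both states, and its log2 fold changes of -0.03 (SE 0.11) and -0.18 (SE 0.12) were not called. Mlxip, which encodes MondoA, measured 44.9, 47.8 and 48.0 CPM in Neg ESCs and 69.4, 74.3 and 74.5 in 3xKD ESCs, then 66.6, 68.9 and 72.9 in Neg EpiLCs and 91.8, 92.1 and 89.7 in 3xKD EpiLCs. It was higher in every 3xKD library of both states. It rose by 0.63 (SE 0.05, adjusted p = 1.23e-08, edgeR) in ESCs, a call lost with transcript length offsets (0.88, adjusted p = 0.0179, edgeR), and its log2 fold change of 0.39 (SE 0.04, adjusted p = 2.03e-06, edgeR) in EpiLCs was inside the fold limit. The difference between states was -0.24 (SE 0.06, adjusted p = 0.0171, edgeR), not called.

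Txnip, which encodes the thioredoxin-interacting protein and is a known direct target of MondoA, lies on chromosome 3 at 96465267 to 96469201 on the plus strand of GRCm39. It measured 494, 493 and 432 CPM in Neg ESCs and 1318, 1270 and 1334 CPM in 3xKD ESCs. In Neg EpiLCs it measured 942, 1019 and 958 CPM, and in 3xKD EpiLCs 2133, 2041 and 2083 CPM. Groups did not overlap, and the 3xKD ESC libraries lay above the Neg EpiLC libraries. Txnip rose by 1.47 (SE 0.05, adjusted p = 1.90e-12, edgeR) in ESCs and by 1.1 (SE 0.05, adjusted p = 3.97e-11, edgeR) in EpiLCs on the log2 scale. The effect was smaller in EpiLCs, by -0.37 (SE 0.07, adjusted p = 0.00105, edgeR), a call that was lost with library size alone as the scaling (-0.29) and with transcript length offsets (adjusted p = 0.0653, edgeR). From ESCs to EpiLCs Txnip rose by 1.04 (SE 0.05, adjusted p = 1.55e-11, edgeR) in Neg cells and by 0.67 (SE 0.05, adjusted p = 4.63e-09, edgeR) in 3xKD cells.

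Both main protein-coding transcripts of Txnip rose. Txnip-202 rose by 1.14 (SE 0.06) in ESCs and 0.85 (SE 0.06) in EpiLCs, and Txnip-201 by 1.80 (SE 0.09) and 1.43 (SE 0.09), all called in the fit over transcripts by edgeR. The share of Txnip-202 in the gene's TPM was 41.6% ± 3.16 in Neg ESCs and 33.3% ± 2.57 in 3xKD ESCs, against 25.0% ± 0.878 and 31.7% ± 1.75 for Txnip-201 (SD, n = 3). The annotation gives them coding lengths of 1191 and 1188 bases.

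The promoter of Txnip is shown because MondoA and ChREBP with MLX are known to act through paired E-box-like elements there. The window below holds the 250 bases before the RefSeq start, chr3:96557707-96557956 on the plus strand of GRCm38.p6, with the letters CACGAG in capitals. Below it stands the same window of Arrdc4, an arrestin relative and another known MondoA target, chr7:68749239-68749488 on the minus strand, with the E-box CACGTG in capitals.
Txnip: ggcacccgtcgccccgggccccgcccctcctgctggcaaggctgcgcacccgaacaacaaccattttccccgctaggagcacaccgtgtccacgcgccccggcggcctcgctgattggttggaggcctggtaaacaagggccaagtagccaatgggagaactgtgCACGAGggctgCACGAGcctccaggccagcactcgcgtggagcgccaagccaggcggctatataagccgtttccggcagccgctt
Arrdc4: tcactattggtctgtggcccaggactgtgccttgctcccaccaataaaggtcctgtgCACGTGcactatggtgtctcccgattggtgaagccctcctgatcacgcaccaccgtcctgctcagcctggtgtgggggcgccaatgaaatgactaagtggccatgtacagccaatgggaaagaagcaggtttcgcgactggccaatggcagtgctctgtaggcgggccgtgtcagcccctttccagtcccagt
The copies of CACGAG begin 85 and 74 bases before the Txnip start and are 5 bases apart, and the CACGTG of Arrdc4 begins 193 bases before its start. Both strands of 32851 RefSeq windows of 300 bases, 250 before and 50 after each start, were searched. CACGAG was in 6.47% of them, CACGTG in 7.15%, and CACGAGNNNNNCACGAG in 1, that of Txnip. That paired form was written from the Txnip window itself, so its count describes only how rare those letters are. Of the 10 network genes 9 had a window, all but Myc, and Max, Mxd4, Mnt and Mlx held CACGTG. A match is a description of letters and not of binding.

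The 4 further genes of the network that were tested beside the 10 were mixed. Mlxipl, which encodes ChREBP, rose in both states, by 0.91 (SE 0.13, adjusted p = 1.55e-05, edgeR) in ESCs and 0.86 (SE 0.13, adjusted p = 5.00e-05, edgeR) in EpiLCs, from 6.88 to 9.48 CPM in Neg ESCs to 14.5 to 16.96 in 3xKD ESCs. Mxd1, another MAD family repressor, fell by 0.59 (SE 0.16, adjusted p = 0.00603, edgeR) and 0.63 (SE 0.16, adjusted p = 0.004, edgeR), and lost the call in several settings named in the closing section. Mga, a large MAX-binding repressor, had log2 fold changes of -0.38 (SE 0.04) and -0.41 (SE 0.04), inside the fold limit and without overlap between libraries. Mxi1 had 0.17 (SE 0.06) and 0.31 (SE 0.06), not called.

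Genes that MYC is known to activate had calls in both directions in each state. Of 28 such genes, 4 rose and 2 fell in ESCs, and 1 rose and 4 fell in EpiLCs, with median log2 fold changes of -0.045 and -0.20. These counts at both limits lie near the 15.3% and 13.2% called among all genes, so they are no result about the list. The adjusted p limit alone passed 20 of the 28 in ESCs and 23 in EpiLCs, beside 31.6% and 29.9% of all genes. Of the 25446 genes tested, only 15032 reached a mean of 1 CPM, and low genes seldom pass a p limit. Shares among genes of like level were not computed for this list or the others. Log2 fold changes were above 0 for 13 of the 28 in ESCs and for 6 in EpiLCs, so most values in EpiLCs were lower. Ccnd1, which encodes cyclin D1, fell in both states, by 2.01 (SE 0.06) and by 1.74 (SE 0.06) on the log2 scale, from 82.1 to 83.9 CPM in Neg EpiLCs to 22.9 to 26.6 in 3xKD EpiLCs. Rrs1, a ribosome assembly factor, fell by 0.72 (SE 0.06) and 0.73 (SE 0.05). Tfrc, which encodes the transferrin receptor, rose by 0.91 (SE 0.04) and 1.00 (SE 0.04). In ESCs Dkc1 of the telomerase and snoRNA complexes, Cad of pyrimidine synthesis and the replicative helicase gene Mcm4 rose by 0.62, 0.61 and 0.60. In EpiLCs Nop58, a snoRNP core gene, and Ccnd2, which encodes cyclin D2, fell by 0.84 (SE 0.04) and 0.73 (SE 0.11).

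Among 23 genes for MYC cofactors and turnover, 0 rose and 1 fell in ESCs, and 1 rose and 1 fell in EpiLCs. Of all genes 8.5% were called higher and 6.76% lower in ESCs, and 7.88% and 5.35% in EpiLCs. The gene that rose was Pim1, a kinase that phosphorylates MYC, by 1.34 (SE 0.05), from 71.3 to 75.5 CPM to 183 to 189 CPM. The medians of the list were -0.13 and -0.11. Beyond the 3 largest rises and falls of each list, the genes given here and in the next paragraphs (Mcm4, Acacb, Hk2, Klf10, Slc2a1 and Txnrd1, with Arrdc4 in ESCs and Rrs1 in EpiLCs) were chosen after their values were seen.

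**Figure D5:**
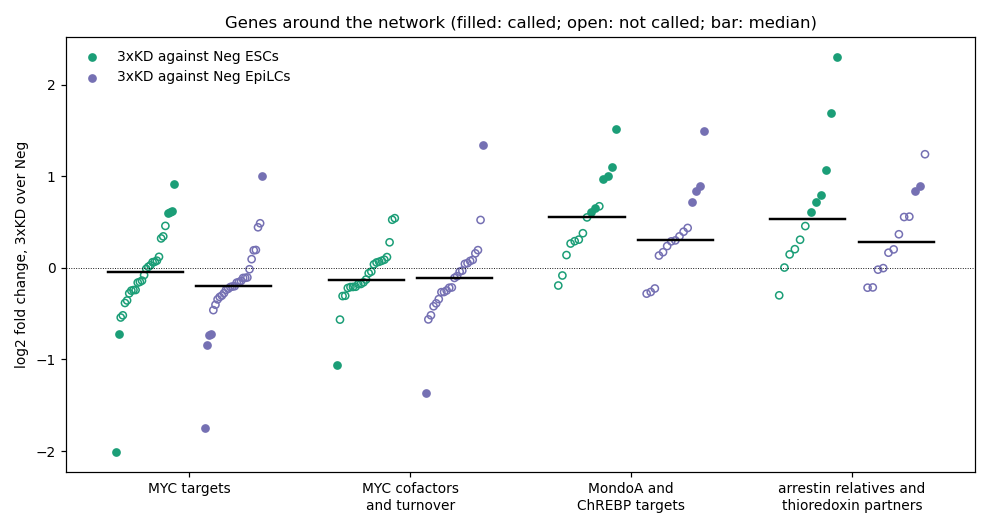
Log2 fold change of 3xKD over Neg in ESCs (green) and EpiLCs (purple) for each tested gene of 4 lists around the network; filled points are called, open points are not, and black bars mark list medians. The MondoA and ChREBP target list has medians of 0.55 and 0.30 and no gene called lower in either state, while the MYC target list has calls in both directions.

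Of 15 tested MondoA and ChREBP targets, on a list without Txnip, 6 rose and none fell in ESCs, and 4 rose and none fell in EpiLCs by edgeR, with medians of 0.55 and 0.30, beside 8.5% and 7.88% of all genes called higher. DESeq2 called 0 lower in either state, and 1 gene in ESCs (Elovl6) and 2 in EpiLCs (Elovl6 and Fasn) had a negative log2 fold change at an unadjusted p under 0.05, inside the fold limit. At the adjusted p limit alone 10 passed in each state, beside 31.6% and 29.9% of all genes. Scd1, a fatty acid desaturase, rose by 1.00 (SE 0.03) and 0.89 (SE 0.03), from 280 to 292 CPM in Neg ESCs to 560 to 586 in 3xKD ESCs. Arrdc4 rose by 0.61 (SE 0.04) and 0.83 (SE 0.04), and measured 68.4 to 73.5, 106 to 108, 108 to 114 and 194 to 205 CPM in Neg ESCs, 3xKD ESCs, Neg EpiLCs and 3xKD EpiLCs. Acacb, an acetyl-CoA carboxylase, and Hk2, a hexokinase, rose in ESCs by 0.97 (SE 0.07) and 0.65 (SE 0.04), and Klf10, a zinc finger repressor, rose in EpiLCs by 0.72 (SE 0.04). Khk, which encodes fructokinase, rose by 1.102 (SE 0.25) and 1.49 (SE 0.23) and Thrsp by 1.52 (SE 0.32) in ESCs, on 15 to 18 and 13 to 22 counts per Neg ESC library. The Khk call in ESCs was lost without replicate 3 of Neg ESCs (0.82) or of 3xKD ESCs (0.967).

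A list of 12 genes held arrestin relatives, thioredoxin genes and other partners of Txnip. Of these, 6 rose in ESCs and 2 in EpiLCs, and none fell by edgeR, beside 8.5% and 7.88% of all genes called higher. Arrdc4 is on this list and on the one before, and is counted among the rises of both states in each. The EpiLC count was 4 without replicate 3 of 3xKD EpiLCs. DESeq2 also called 0 lower, and 1 gene in ESCs (Arrdc3) and 2 in EpiLCs (Arrdc3 and Txn2) were negative at an unadjusted p under 0.05. The medians were 0.53 and 0.28. Ddit4, an inhibitor of mTORC1 that binds TXNIP, rose by 1.69 (SE 0.04) in ESCs, from 148 to 164 CPM to 490 to 513 CPM. Slc2a1, the glucose transporter that TXNIP removes from the cell surface, rose by 0.80 (SE 0.05) in ESCs, and Txnrd1, which encodes thioredoxin reductase, by 0.72 (SE 0.04). Arrdc2 rose by 1.06 (SE 0.09) and 0.90 (SE 0.08). Nlrp3, the inflammasome sensor, was called in ESCs at 2.30 (SE 0.53) on 1 to 11 counts per Neg library, and ranged from 1.67 without replicate 3 to 3.60 without replicate 2 of Neg ESCs.

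Levels of the 10 genes per length spanned a wide range in each group. In Neg ESCs the order of mean TPM, without models of an effective length under 100 bases, was Txnip at 170 ± 46.8, Max at 27.6 ± 7.08, Mycn at 27.2 ± 4.87, Mnt at 14.8 ± 2.48, Mlx at 8.25 ± 1.05, Mlxip at 5.46 ± 1.78, Mycl at 4.87 ± 1.39, Mxd3 at 3.36 ± 1.08, Mxd4 at 2.34 ± 0.555 and Myc at 1.58 ± 0.362 (SD, n = 3). Max and Mycn overlapped, as did each pair of neighbours from Mlx down to Mxd4. In 3xKD EpiLCs Txnip stood at 860 ± 186, followed by Myc at 25.0 ± 3.12 and Max at 18.8 ± 3.40, and Mycn at 11.8 ± 1.66 lay below Mnt at 17.04 ± 1.72 and overlapped Mlxip at 13.3 ± 4.53. Myc thus stood last of the 10 in Neg ESCs and second in 3xKD EpiLCs.

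Over the 12 libraries, the genes whose log2 CPM followed these most closely, of 15032 genes whose mean reached 1 CPM, were Il17rd, Nherf1 and Mtdh for Myc (Pearson's r 0.996, 0.992 and 0.991). They were Rybp and Atg16l1 for Mycn (0.996 and 0.991) and Prpf40b, Cyfip2 and Rhobtb1 for Txnip (0.996, 0.995 and 0.994). The 12 libraries fall into 4 groups and are not independent points, so these values are a description.

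The guides were also compared with the genome around the network genes. Within 1000 bases of the annotated starts of the 10 genes, the 19-base guides to Pcx, Me1 and Me2 met no site with fewer than 5 mismatches, the closest being at Mlxip. With average transcript length offsets in place of plain sums, 3 of the 10 genes stayed called in ESCs, Myc, Mycn and Txnip, and 2789 genes were called in place of 3885. In EpiLCs those offsets added a call of Mycl (0.69).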

How the data were processed

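Ribosome-depleted, directional, single-end RNA libraries were processed by the authors with Trim Galore 0.6.7, STAR 2.7.9a and Salmon 1.10.1 on GRCm39, per the labels and the study's methods. The molecule field of the labels says polyA RNA, while the study's methods describe depletion of ribosomal RNA. The files deposited by the authors hold estimated counts and TPM per transcript for each library. Counts were summed per gene with the deposited transcript map and rounded to whole numbers, and TPM was summed likewise. The filter kept genes whose counts over the 12 libraries reached 10. The quasi-likelihood test of edgeR 4.0.16 (R 4.3.3) was run in 1 model of 4 groups with TMM factors and Benjamini-Hochberg adjustment over all genes. SE is the log2 fold change divided by the root of F. Calls needed both limits, 0.01 for the adjusted p and 0.58 for the size of the log2 fold change, and the difference between states used the adjusted p alone. CPM was computed from TMM-scaled libraries. Named genes were the 10 genes, Mxd1, Mxi1, Mga and Mlxipl, and from each context list the 3 called genes with the largest rise and fall in each comparison, and some results on genes that these rules name are not reported here. The members and lists were chosen with earlier results of these data known. Positions are from GENCODE on GRCm39 and promoter sequences from RefSeq on GRCm38.p6. The code was tested on simulated data. Alternatives were DESeq2 1.42.0, other scalings and filters, transcript length offsets, a replicate block, only the groups compared, another call limit, and leaving out each library. Library totals are given in the report and limit the precision of low genes such as Myc in ESCs. Pairing by replicate number is treated in the closing section.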

Additional observations from a re-analysis of the deposited data

Results flagged for a closer look

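The effect of 3xKD (3xKD over Neg, log2) differed between EpiLCs and ESCs for the genes of the network and its lists given here by the interaction term of edgeR at an adjusted p under 0.01. Values are the EpiLC effect minus the ESC effect, and 10% of all genes tested passed. Of the 10 network genes it was 2.38 for Myc, -0.76 for Mycn, 0.66 for Mycl and -0.37 for Txnip.

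Among MYC cofactors and turnover genes it was 0.82 for Pim1, -0.31 for Hcfc1 and -0.26 for Bptf. Among MYC targets it was 0.20 for Odc1, -0.47 for Eif4e, -0.45 for Cdc25a and -0.42 for Dkc1. Among MondoA and ChREBP targets it was 0.41 for Klf10, 0.23 for Arrdc4, -0.54 for Acacb and -0.36 for Hk2. On the list of arrestin relatives and partners of Txnip it was -1.13 for Ddit4, -0.55 for Txnrd1 and -0.42 for Txn2. With 1 library left out at a time, 3 of these did not hold in every fit by edgeR. Odc1 lost the call in 9 of 12 such fits (0.16 to 0.22), Arrdc4 in 8 (0.18 to 0.25) and Bptf in 5 (-0.30 to -0.23). Transcript length offsets ended the calls of Mycl, Txnip, Hcfc1, Bptf, Odc1, Klf10, Arrdc4, Acacb and Txn2, and library size alone as the scaling ended those of Txnip and Bptf. Groups hold 3 libraries, so single libraries were not tested as outliers.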

How the results depend on the processing

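Of 1040 values of the 10 genes under the alternatives, 996 kept their direction and side of the limits, 23 changed sign, 11 gained a call and 10 lost one. Calls among the 10 genes came to 3 in ESCs (1 higher, 2 lower) and 2 for the difference between states (1 higher, 1 lower) with transcript length offsets. At an adjusted p under 0.05 with no fold limit they came to 8 in EpiLCs (5 higher, 3 lower) and 8 in each comparison of states (6 higher, 2 lower). With TMM CPM in place of TPM the Mycn share was 74.6% in 3xKD ESCs, 68.2% in Neg EpiLCs and 33.2% in 3xKD EpiLCs. The MYC sum was then 124.3, 65.5, 209.2 and 122.4 in Neg ESCs, 3xKD ESCs, Neg EpiLCs and 3xKD EpiLCs, and the repressor ratio 0.796, 1.38, 0.664 and 1.04.

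Sign changes were of values near 0 that were not called. For 3xKD in EpiLCs, Mnt was at -0.0031 with length offsets and -0.0045 with only the groups compared, Mlx at 0.0014 with offsets, and Mxd4-202 at -0.0026 with RLE and -0.029 with upper-quartile factors. For Neg EpiLCs over Neg ESCs, Max was at 0.030 with upper-quartile factors and 0.016 with offsets, and Mxd1 at 0.0072 with DESeq2, 0.0072 with RLE and 0.071 with upper-quartile factors. For 3xKD EpiLCs over 3xKD ESCs, Mycl was at 0.030 with upper-quartile factors and 0.16 with offsets, and Mxd1 at 0.021 with upper-quartile factors. For the difference between states, library size alone gave 0.054 for Mxd4, 0.035 for Mxd1, 0.045 for Mga and 0.022 for Mlxipl, offsets gave 0.090 for Mlx and 0.13 for Mxd1, and no filter beyond 1 count gave 0.0037 for Mxd4. The cause was not tested.

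Leaving out 1 library at a time gave -0.10 to 0.073 for Mlx in ESCs, -0.0048 to 0.027 for Mnt in EpiLCs, -0.098 to 0.035 for Max and -0.090 to 0.15 for Mxd1 between Neg states, and -0.11 to 0.022 for Mycl and -0.18 to 0.097 for Mxd1 between 3xKD states. For the difference between states it gave -0.20 to 0.11 for Mxd1, -0.11 to 0.032 for Mxd4, -0.071 to 0.0068 for Mga and -0.16 to 0.072 for Mlxipl. For Mxd4-202 it gave -0.078 to 0.16 (ESCs) and -0.14 to 0.36 (EpiLCs). Mxd1 lost its ESC call with upper-quartile factors (-0.57) and offsets (-0.76) and its EpiLC call with library size alone (-0.57) and offsets (-0.64), and in each state with several single libraries left out, among them replicate 2 of Neg ESCs (-0.43) and replicate 3 of 3xKD EpiLCs (-0.51).

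What libraries with the same replicate number share beyond that number is not known here. Correlations of their deviations lay between -0.13 and 0.0999 in 18 pairs, with 0 over 0.1. With the replicate block the calls among the 10 genes were 7 in ESCs, 4 in EpiLCs, 4 and 3 between states and 4 for the difference, and of the named genes Arrdc4 lost its difference between states (0.23, adjusted p = 0.0101 by edgeR). Counts of 13 to 21 per library limit Myc in 3xKD ESCs.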
